A study of Homo sapiens with 18 samples.

Results

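The NK cell surface receptors described here are 10 genes taken by their NCBI Gene ID from all 18 deposited gene tables: NCAM1, KLRD1, KLRK1, KLRC1, KLRC2, KLRB1, NCR1, NCR3, CD160 and CD244. They are 10 of the 21662 gene IDs listed in any library. All 10 were listed and all 10 passed the filter on low counts, KLRB1 only through its counts in SNK-10. The libraries came from 3 established lines of NK/T cell lymphoma, SNK-10, SNT-8 and SNT-16, each labelled as wild type. Each line was exposed for 12 h to icaritin, a prenylated flavonoid from Epimedium plants, or to DMSO, its solvent, with 3 libraries in each of the 6 groups. The dose of icaritin is not given in the sources used here, and the labels do not say whether replicates were separate cultures, so each p-value is set against the spread among these libraries, which may be technical. Each line is a single model, so a difference between lines is a difference between these 3 models.

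Natural killer cells read their targets through a balance of activating and inhibitory receptors. KLRK1 encodes NKG2D, which binds stress-induced relatives of MHC class I and signals through the adaptor HCST. KLRD1 encodes CD94, which pairs with KLRC1 (NKG2A, inhibitory) or KLRC2 (NKG2C, activating, with the adaptor TYROBP) to read HLA-E. NCR1 (NKp46) and NCR3 (NKp30) are natural cytotoxicity receptors that signal through CD247 and FCER1G. CD244 (2B4) binds CD48 and signals through SH2D1A, CD160 binds TNFRSF14 and MHC class I, KLRB1 (CD161) binds the CLEC2D product, and NCAM1 (CD56) is the adhesion molecule by which NK cells are recognised. In extranodal NK/T cell lymphoma, NCAM1 and some of the other receptors serve as lineage markers.

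The expected counts of a library, the deposited estimates for each gene, which need not be whole, summed to between 9526431 and 10100453. PLK1, the kinase named in the title of the series, averaged 31.8 to 45.5 FPKM in the icaritin groups, against 105 to 111 FPKM in the DMSO groups; FPKM is the authors' count scaled by transcript length and library. The share of counts from the mitochondrial ribosomal RNA gene RNR2 was between 1.65% and 5.12% in icaritin libraries, against between 0.83% and 1.55% in DMSO libraries. SNT-8 icaritin replicate 2 stood apart from its 2 fellow libraries, with a chi-square per gene of 5.96 and 8.18 against 3.07 between the other 2. SNK-10 icaritin replicate 3 stood apart too, with 3.405 and 4.128 against 1.527 between its fellow libraries. The cytotoxic granule genes that mark these lymphomas summed to between 1937 and 3267 FPKM in every library, but the lines did not share each gene. In DMSO libraries the granule sum was 1973 to 2049 FPKM in SNK-10, below that of both SNT lines. It was 2636.5 to 2810.6 FPKM in SNT-8 and 3019 to 3099 FPKM in SNT-16. GNLY and GZMK went the other way. GNLY had 2309 counts in the SNK-10 DMSO libraries, against 8 in SNT-8 and 13 in SNT-16, and GZMK had 297 against 9 and 2. Of the 10 granule genes, 6 were higher and 4 lower in SNK-10 than in SNT-8 after DMSO, against 57.6% of all genes. Against SNT-16, 5 granule genes were higher and 4 lower, where 57.8% of all genes differed. GZMK passed the filter on low counts only through SNK-10, so it could only be called higher there. Of 16 T cell markers 10 were listed, and their sum was 210 to 213 FPKM after icaritin against 225 to 231 FPKM after DMSO in SNK-10, 345 to 357 against 447 to 461 FPKM in SNT-8, and 349 to 372 against 441 to 449 FPKM in SNT-16. CD8B was at 0 in all but the SNT-8 DMSO group. CD4 had 24 counts over the SNK-10 DMSO libraries, against 1 in SNT-8 and 2 in SNT-16, and CD5 had 9 against 10 and 15. Of the 10 listed T cell markers 6 passed the filter on low counts, so their sum rests on part of the list. The 8 B cell markers summed to at most 2.27 FPKM and the 10 myeloid markers to at most 26.7 FPKM. The part of the RNR2 share and of the T cell markers in the results below was not tested. In bulk RNA, fewer cells carrying a transcript and less of it per cell cannot be told apart.

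The 3 lines carried different receptor sets in their DMSO libraries. SNK-10 was high in KLRK1 and KLRB1. Both SNT lines had little KLRK1, at or near 0 counts of KLRB1, and more NCAM1, KLRD1 and CD244. CD160 was also higher in the SNT lines, but its difference between SNK-10 and SNT-16 did not hold in every fit. After 12 h of icaritin, CD160, NCR3 and NCR1 fell on the mean of the lines while NCAM1 and KLRC1 rose slightly. All these changes were by less than 1 on the log2 scale. The fall of NCR1 on the mean did not pass the threshold without SNK-10 DMSO replicate 1. CD244 rose in SNK-10, and its response there differed from that of both SNT lines.

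**Figure D1:**
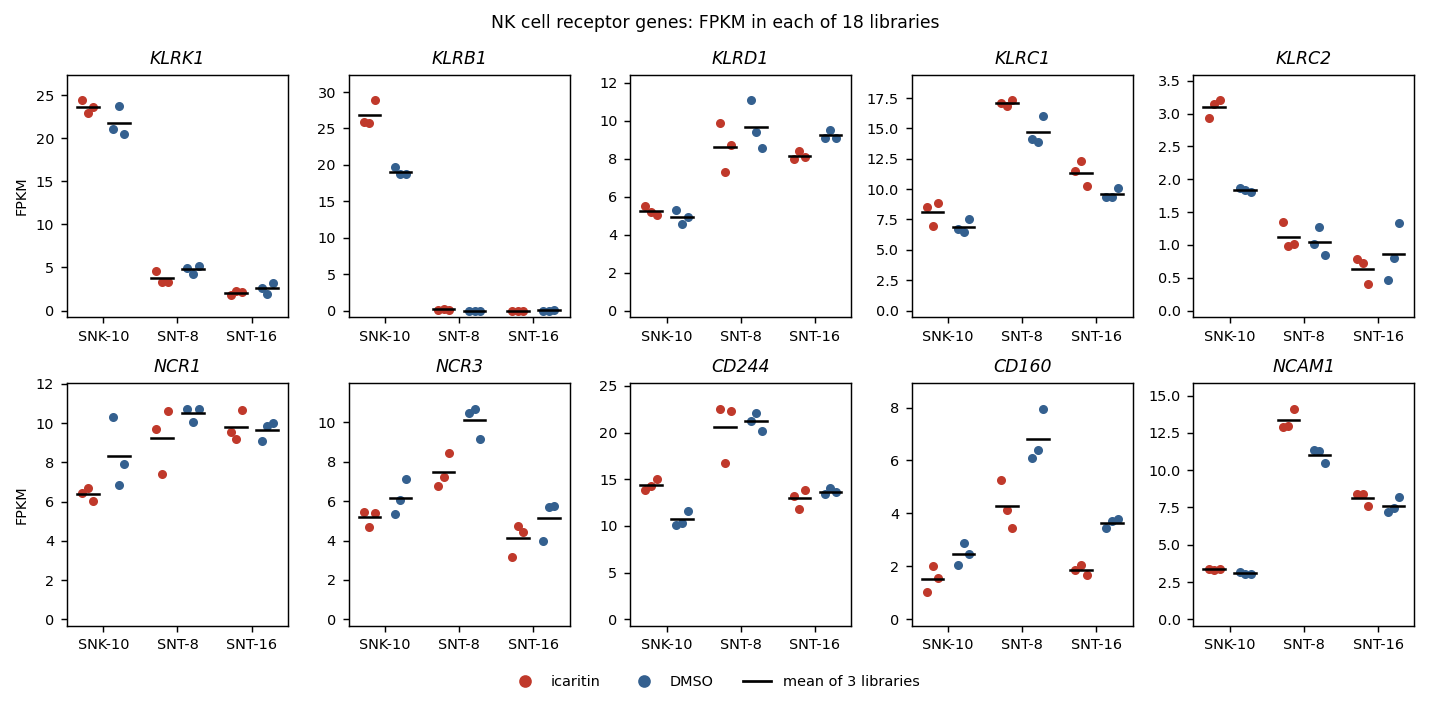
FPKM of the 10 receptor genes (vertical axes, 1 scale a gene) in each of the 18 libraries, by line, with icaritin left of DMSO; points are libraries and black lines are the means of 3 libraries. KLRK1 lies between 20.5 and 24.5 FPKM in all 6 SNK-10 libraries and at or below 5.21 FPKM in the 12 SNT libraries, and KLRB1 is at 0.28 FPKM or less in the SNT libraries.

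KLRK1 had 24.5, 22.9 and 23.6 FPKM in the SNK-10 icaritin libraries, against 21.1, 23.8 and 20.5 FPKM in those given DMSO. In SNT-8 it had 4.54, 3.34 and 3.35 FPKM after icaritin, against 4.92, 4.26 and 5.21 FPKM after DMSO. In SNT-16 the values were 1.86, 2.22 and 2.16 FPKM after icaritin, against 2.60, 1.96 and 3.22 FPKM after DMSO. The lines thus stood in the order SNK-10, SNT-8, SNT-16 in either treatment, with no overlap between lines. On the log2 scale the DMSO level in SNK-10 was higher by 2.19 than in SNT-8 (SE 0.114, adjusted p = 9.92e-20, edgeR) and by 3.12 than in SNT-16 (SE 0.129, adjusted p = 4.98e-23), and that in SNT-8 was higher by 0.93 than in SNT-16 (SE 0.166, adjusted p = 9.30e-05).

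Icaritin and DMSO libraries overlapped for KLRK1 in each line. The fall of 0.40 on the log2 scale in SNT-8 passed the threshold (SE 0.154, adjusted p = 0.0278, edgeR), and the estimates in SNK-10 (0.15, adjusted p = 0.180) and SNT-16 (-0.34, adjusted p = 0.177) did not. The call in SNT-8 was lost when any of 4 of its 6 libraries was left out, with a log2 fold change of -0.38 (adjusted p = 0.0727) without DMSO replicate 1, -0.34 (0.110) without DMSO replicate 3, -0.34 (0.10) without icaritin replicate 2 and -0.32 (0.118) without icaritin replicate 3, in edgeR. It was also lost with only the 6 SNT-8 libraries (adjusted p = 0.0536), with limma on log2(FPKM + 0.1) (adjusted p = 0.0507), and when KLRK1 was summed with the readthrough gene KLRC4-KLRK1, which shares its sequence: -0.24, adjusted p = 0.188, in a range of 0.00678 to 0.188 over all alternatives. The readthrough gene had 20.9 counts in all over the SNT-8 icaritin libraries, against 0 counts after DMSO, and the part of that division of reads in the KLRK1 difference was not tested beyond this sum.

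KLRB1 was the most line-restricted of the receptors. It had 26.0, 25.8 and 28.9 FPKM in SNK-10 after icaritin, against 19.8, 18.7 and 18.7 FPKM after DMSO, and the groups did not overlap. The rise in SNK-10 was 0.53 on the log2 scale (SE 0.132, adjusted p = 0.00107, edgeR), and over the alternatives its adjusted p lay between 6.38e-05 and 0.142, the highest with limma on log2(FPKM + 0.1). In SNT-8 it was counted 1, 2 and 1 times in the icaritin libraries, against 0 in all 3 DMSO libraries, and in SNT-16 it had 0 counts after icaritin, against 1 count in a single DMSO library. The edgeR fit gave the difference between arms in SNT-8 an adjusted p of 0.0404 on these 4 counts, and it was past the threshold no longer with DESeq2 (adjusted p = 0.0868), without any of the 3 DMSO libraries (0.0902 to 0.0913) and without icaritin replicate 2 (0.110), over a range of 0.000166 to 0.110. It is not read as a change, and no fold is given for it. Between DMSO libraries KLRB1 was at least 138-fold higher in SNK-10 than in SNT-8, taking 3 counts over the SNT-8 group as its floor. The ratio of SNK-10 to SNT-16 was 418, with a 95% counting interval of 74.6 to 16555, since it rests on 1 count.

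The CD94 chain gene KLRD1 ranged from 5.06 to 5.50 FPKM after icaritin against 4.56 to 5.3 FPKM after DMSO in SNK-10, from 7.28 to 9.88 against 8.55 to 11.1 FPKM in SNT-8, and from 7.98 to 8.42 against 9.08 to 9.52 FPKM in SNT-16. The treatment groups were separate in SNT-16 alone. Its DMSO level was lower in SNK-10 by 0.97 on the log2 scale than in SNT-8 (SE 0.101, adjusted p = 8.00e-11, edgeR) and by 0.84 than in SNT-16 (SE 0.102, adjusted p = 3.62e-09). The SNT lines themselves did not differ past the threshold (0.13, adjusted p = 0.394). No response of KLRD1 to icaritin passed in any line in edgeR over all 18 libraries. In SNT-16 it was -0.18 (SE 0.094, adjusted p = 0.123), and passed with only the 6 libraries compared (-0.18, adjusted p = 0.0479, in a range of 0.0479 to 0.287). The nearest to the threshold was -0.22 in SNT-8 (SE 0.092, adjusted p = 0.0509), which passed in 7 alternatives, among them the fits without SNT-8 DMSO replicate 3 (-0.30, adjusted p = 0.0128) and without icaritin replicate 1 (-0.32, adjusted p = 0.00665), in a range of 0.00665 to 0.412 over the alternatives in edgeR, DESeq2 and limma. The response of SNK-10 minus that of SNT-8 (0.34, adjusted p = 0.142, edgeR) also passed without SNT-8 icaritin replicate 1 (0.45, adjusted p = 0.0414, in a range of 0.0414 to 0.391).

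KLRC1, the inhibitory partner of CD94, had 8.53, 6.93 and 8.84 FPKM after icaritin against 6.72, 6.45 and 7.51 FPKM after DMSO in SNK-10. In SNT-8 the values were 17.1, 16.8 and 17.4 against 14.1, 13.9 and 16.0 FPKM, and in SNT-16 they were 11.5, 12.3 and 10.3 against 9.36, 9.31 and 10.1 FPKM. The treatment groups overlapped in SNK-10 and not in either SNT line. On the mean of the lines KLRC1 rose by 0.24 on the log2 scale (SE 0.064, adjusted p = 0.00152, edgeR). Within lines the estimates were 0.26 in SNK-10 (adjusted p = 0.0803), 0.18 in SNT-8 (adjusted p = 0.126) and 0.27 in SNT-16 (adjusted p = 0.0470), and the call in SNT-16 ended in 15 of the alternatives. Of these, 10 left out 1 library: SNT-16 DMSO replicate 1, 2 or 3, SNT-16 icaritin replicate 1 or 2, SNT-8 DMSO replicate 1 or 2, SNT-8 icaritin replicate 1, SNK-10 DMSO replicate 1 or SNK-10 icaritin replicate 1. The log2 fold change ranged from 0.20 to 0.32 and its adjusted p from 0.0307 to 0.211. Without SNK-10 icaritin replicate 2 the estimate in SNK-10 passed (0.37, adjusted p = 0.0206, edgeR, in a range of 8.80e-06 to 0.35). The lowest of that range is the value with KLRC genes summed, not of KLRC1 alone.

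KLRC2, the activating partner, had 2.93, 3.14 and 3.21 FPKM after icaritin in SNK-10, against 1.87, 1.84 and 1.80 FPKM after DMSO. These groups did not overlap, and the rise was 0.77 on the log2 scale (SE 0.265, adjusted p = 0.0146, edgeR; 0.0515 with DESeq2, the highest of its alternatives). In the SNT lines KLRC2 stayed between 0.41 and 1.35 FPKM in all 12 libraries, from 4.84 to 16.1 expected counts, and its treatment groups overlapped. KLRC1, KLRC2, KLRC3 and KLRC4 are closely related neighbours, and their expected counts were mostly fractional, so how reads were divided among them is uncertain. KLRC1 held 42.3% to 45.8% of the family counts after icaritin and 51.7% to 55.4% after DMSO in SNK-10, against 87.3% to 92.9% in the SNT lines.

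Summed over the 4 KLRC genes, the family rose in SNK-10 by 0.53 on the log2 scale (adjusted p = 8.80e-06, edgeR), with sums of 242, 219 and 266 counts after icaritin against 172, 163 and 185 counts after DMSO. The summed estimates were 0.20 in SNT-8 (adjusted p = 0.0616) and 0.24 in SNT-16 (adjusted p = 0.0521), which did not pass. Between DMSO libraries KLRC1 was lower in SNK-10 than in SNT-8 by 1.06 (SE 0.112, adjusted p = 1.15e-10, edgeR) and KLRC2 higher than in SNT-16 by 1.13 (SE 0.324, adjusted p = 0.00273). For other differences between lines the family sum went the other way from a single gene. KLRC2 alone was higher in SNK-10 than in SNT-8 by 0.87 (SE 0.314, adjusted p = 0.0169, edgeR), but 0.73 with adjusted p = 0.0760 without SNT-8 DMSO replicate 3, whereas the family sum was lower in SNK-10 (-0.31, adjusted p = 0.00434, in a range of 0.00434 to 0.0760). KLRC1 alone was lower in SNK-10 than in SNT-16 by 0.38 (SE 0.121, adjusted p = 0.00627), whereas the family sum was higher in SNK-10 (0.34, adjusted p = 0.00442, in a range of 0.000222 to 0.050).

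**Figure D2:**
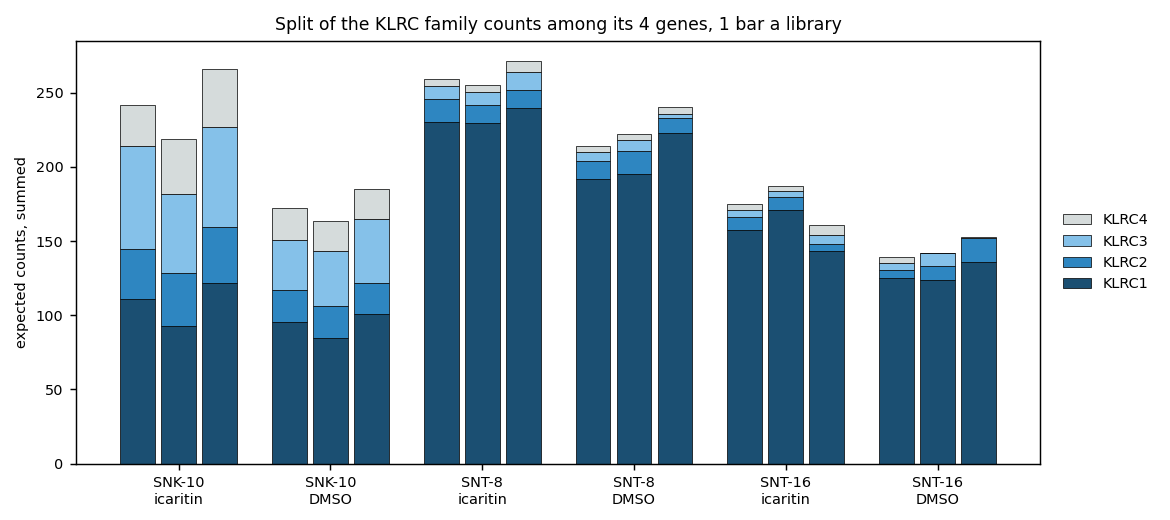
Expected counts of KLRC1, KLRC2, KLRC3 and KLRC4 stacked (vertical axis, counts) for each of the 18 libraries, 1 bar a library, with icaritin left of DMSO in each line. KLRC1 fills at least 87.3% of each bar in the SNT lines and at most 55.4% in SNK-10, and the SNK-10 bars reach 219 to 266 counts after icaritin against 163 to 185 counts after DMSO.

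NCR1 was the member whose level did not differ past the threshold between any pair of lines. It had 6.44, 6.69 and 6.02 FPKM after icaritin in SNK-10, against 10.3, 6.83 and 7.90 FPKM after DMSO. It ranged from 7.42 to 10.6 against 10.04 to 10.7 FPKM in SNT-8 and from 9.21 to 10.7 against 9.10 to 10.01 FPKM in SNT-16. No difference of NCR1 between DMSO libraries of 2 lines passed the threshold, the nearest being -0.31 on the log2 scale for SNK-10 minus SNT-8 (SE 0.135, adjusted p = 0.0509, edgeR; 0.00429 to 0.326 over the alternatives, with -0.49 and the lowest p without SNK-10 DMSO replicate 1). In SNK-10 NCR1 fell by 0.39 (SE 0.149, adjusted p = 0.0291, edgeR). That call was lost without DMSO replicate 1, the highest library (-0.20, adjusted p = 0.332), without icaritin replicate 1 (-0.36, 0.0812), without icaritin replicate 3 (-0.38, 0.0599) and with DESeq2 (-0.38, 0.0753), in a range of 0.00675 to 0.332. On the mean of the lines NCR1 fell by 0.22 (SE 0.080, adjusted p = 0.0156, edgeR), and without SNK-10 DMSO replicate 1 the mean was -0.16 (adjusted p = 0.0802, in a range of 0.00441 to 0.0802). The estimates in SNT-8 and SNT-16 were -0.26 (adjusted p = 0.106) and -0.02 (adjusted p = 0.927), the first of which passed without SNT-8 icaritin replicate 3 (-0.37, adjusted p = 0.0392, in a range of 0.0392 to 0.485).

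NCR3 had 6.76, 7.23 and 8.45 FPKM after icaritin in SNT-8, against 10.5, 10.7 and 9.17 FPKM after DMSO, with no overlap. The fall was 0.46 on the log2 scale (SE 0.148, adjusted p = 0.00924, edgeR) and passed in every alternative run, at 0.0477 or below. In SNK-10 NCR3 had 5.44, 4.70 and 5.39 FPKM after icaritin against 5.34, 6.06 and 7.14 FPKM after DMSO, and in SNT-16 it had 3.19, 4.74 and 4.44 FPKM against 4.0, 5.72 and 5.77 FPKM, and both pairs overlapped. The estimates there were -0.17 (adjusted p = 0.453, edgeR) and -0.35 (adjusted p = 0.126), and the one in SNT-16 passed without DMSO replicate 1 (-0.49, adjusted p = 0.0467, in a range of 0.0467 to 0.456). On the mean of the lines NCR3 fell by 0.33 (SE 0.098, adjusted p = 0.00378, edgeR). Its DMSO level in SNT-8 was higher by 1.02 than in SNT-16 (SE 0.158, adjusted p = 1.08e-05), and that in SNK-10 was lower by 0.76 than in SNT-8 (SE 0.155, adjusted p = 5.91e-05). In the annotation NCR3 overlaps LST1, which had a mean of 210 counts a library, and NCR1 overlaps NLRP7, with a mean of 31.6 counts. The counting is not stated to use strand, so reads of overlapping genes cannot be told apart.

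CD244 was the most abundant of the 10 genes per transcript length in both SNT lines. It had 13.9, 14.3 and 15.0 FPKM after icaritin in SNK-10, against 10.1, 10.3 and 11.7 FPKM after DMSO, and all 3 treated libraries lay above all 3 controls. In SNT-8 it had 22.6, 16.8 and 22.4 FPKM against 21.3, 22.1 and 20.2 FPKM, and in SNT-16 it had 13.2, 11.8 and 13.9 FPKM against 13.4, 14.0 and 13.6 FPKM, both with overlap. The rise in SNK-10 was 0.46 on the log2 scale (SE 0.094, adjusted p = 0.000106, edgeR), while the estimates were -0.10 in SNT-8 (adjusted p = 0.318) and -0.11 in SNT-16 (adjusted p = 0.364). The response of SNK-10 exceeded that of SNT-8 by 0.56 (SE 0.124, adjusted p = 0.00224) and that of SNT-16 by 0.57 (SE 0.131, adjusted p = 0.00274). On the mean of the lines the estimate of 0.08 did not pass (adjusted p = 0.167), but did without SNT-8 icaritin replicate 2, the lowest of its group (0.13, adjusted p = 0.00880, in a range of 0.00880 to 0.346). Both differences between lines passed in every alternative run, the first at 0.0283 or below and the second at 0.0179 or below. Among DMSO libraries SNK-10 was the lowest line for CD244, by 0.98 against SNT-8 (SE 0.089, adjusted p = 5.68e-12) and by 0.30 against SNT-16 (SE 0.094, adjusted p = 0.00627).

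CD160 showed the largest response of the 10 genes on the mean of the lines, leaving aside KLRB1 with its few counts in the SNT lines. It had 1.03, 2.01 and 1.57 FPKM after icaritin in SNK-10, against 2.06, 2.89 and 2.45 FPKM after DMSO. In SNT-8 it had 5.25, 4.14 and 3.44 FPKM against 6.09, 6.38 and 7.96 FPKM, and in SNT-16 it had 1.88, 2.04 and 1.68 FPKM against 3.45, 3.70 and 3.79 FPKM. All treated libraries lay below all controls in each line on this scale; in CPM, counts scaled to the library total, the SNK-10 groups overlapped. CD160 fell by 0.76 on the log2 scale in SNT-8 (SE 0.163, adjusted p = 0.000164, edgeR) and by 0.85 in SNT-16 (SE 0.207, adjusted p = 0.000877), and its estimate of -0.50 in SNK-10 did not pass (SE 0.233, adjusted p = 0.0760). It passed with limma on either log2 FPKM scale (0.00802 and 0.0121) and without SNK-10 DMSO replicate 1 (-0.62, adjusted p = 0.0434, edgeR), in a range of 0.00802 to 0.361. The mean over the lines was -0.70 (SE 0.117, adjusted p = 2.03e-06), and the response was not shown to differ between lines (adjusted p = 0.710). CD160 rests on 16 to 118 counts a library, the lowest in SNK-10. Its DMSO level was higher in SNT-8 than in SNT-16 by 1.04 (SE 0.168, adjusted p = 1.92e-05) and lower in SNK-10 than in SNT-8 by 1.56 (SE 0.181, adjusted p = 1.12e-09). Against SNT-16 the level in SNK-10 was lower by 0.51 (SE 0.201, adjusted p = 0.0272, edgeR), a call lost with DESeq2 (adjusted p = 0.0787) and without any of 4 libraries: SNK-10 DMSO replicate 1 (-0.39, adjusted p = 0.143) or 3 (-0.49, adjusted p = 0.0690), and SNT-16 DMSO replicate 2 (-0.47, adjusted p = 0.0799) or 3 (-0.52, adjusted p = 0.0528), over a range of 0.0134 to 0.143. CD160 overlaps RNF115 in the annotation, and RNF115, with a mean of 549 counts a library, rose in each line, by 0.51 in SNK-10, 0.36 in SNT-8 and 0.33 in SNT-16 on the log2 scale (adjusted p at most 9.99e-06, edgeR).

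The start regions of CD160, NCR1 and KLRB1 are printed to show the letters before the starts of a gene from each pattern. CD160 and NCR1 fell on the mean of the lines, NCR1 not in every fit. Only SNK-10 carried KLRB1 beyond a few counts. The promoter table of RefSeq (GRCh38.p14) held 5 of the 10 genes, with 7 start sites: CD160, CD244, KLRB1, KLRC1 and NCR1. Each line gives the 250 bases before the start, on the strand of the gene. Capitals mark the RUNX core, spelled TGTGGT, or the core bound by T-box factors, spelled TCACAC. Both strands were searched, a match on the other strand appears as the reverse complement, and no marked motifs overlap. The bases just after the start were found in 1 of 5 GENCODE transcripts of CD160 and 1 of 8 of NCR1, and not in the 1 transcript of KLRB1, so the KLRB1 start rests on RefSeq alone.
CD160, chr1:145719249-145719498, plus strand: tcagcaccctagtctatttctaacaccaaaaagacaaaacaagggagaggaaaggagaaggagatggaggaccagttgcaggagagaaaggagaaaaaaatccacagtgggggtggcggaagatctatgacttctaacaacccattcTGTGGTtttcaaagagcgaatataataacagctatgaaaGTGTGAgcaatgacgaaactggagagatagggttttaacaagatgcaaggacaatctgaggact
NCR1, chr19:54905898-54906147, plus strand: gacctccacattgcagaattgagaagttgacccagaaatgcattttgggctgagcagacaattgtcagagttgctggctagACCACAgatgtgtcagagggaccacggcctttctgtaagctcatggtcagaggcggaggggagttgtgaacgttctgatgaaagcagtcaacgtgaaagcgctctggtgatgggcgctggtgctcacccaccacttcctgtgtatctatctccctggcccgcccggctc
KLRB1, chr12:9607917-9608166, minus strand: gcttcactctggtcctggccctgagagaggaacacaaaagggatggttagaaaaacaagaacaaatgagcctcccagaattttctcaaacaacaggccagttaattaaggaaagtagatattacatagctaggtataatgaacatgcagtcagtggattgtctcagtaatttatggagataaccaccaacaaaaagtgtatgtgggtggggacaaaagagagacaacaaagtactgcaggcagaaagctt
The CD160 window held a RUNX core that begins 103 bases and a T-box core that begins 64 bases before the start, and the NCR1 window held a RUNX core 169 bases before it. The KLRB1 and CD244 windows held neither of them nor CCGGAA, the only spelling of an ETS site searched. Shorter or other ETS spellings were not searched. Of the 3 KLRC1 starts 1 had a T-box core. The bases just after that start were found in 0 of 7 GENCODE transcripts of KLRC1, against 1 and 3 for its other starts. Those after the CD244 start were found in 0 of 5. Of all 35116 windows of the same length, 11% held the RUNX core, 9.9% the T-box core and 14.5% the spelling CCGGAA. A match is a description of letters, not of binding.

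NCAM1 had 3.40, 3.34 and 3.35 FPKM after icaritin in SNK-10, against 3.19, 3.07 and 3.04 FPKM after DMSO. In SNT-8 it had 12.9, 13.0 and 14.1 FPKM against 11.4, 11.3 and 10.5 FPKM, and in SNT-16 it had 8.43, 8.40 and 7.57 FPKM against 7.19, 7.44 and 8.22 FPKM. The groups were separate in SNK-10 and SNT-8 and overlapped in SNT-16. NCAM1 rose by 0.22 on the log2 scale in SNT-8 (SE 0.060, adjusted p = 0.00237, edgeR), with estimates of 0.14 in SNK-10 (adjusted p = 0.190) and 0.07 in SNT-16 (adjusted p = 0.448), and by 0.14 on the mean of the lines (SE 0.042, adjusted p = 0.00321). Among DMSO libraries its level in SNK-10 was lower by 1.82 than in SNT-8 (SE 0.074, adjusted p = 2.69e-23) and by 1.24 than in SNT-16 (SE 0.078, adjusted p = 3.44e-17). SNT-8 exceeded SNT-16 by 0.59 (SE 0.064, adjusted p = 8.39e-09).

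**Figure D3:**
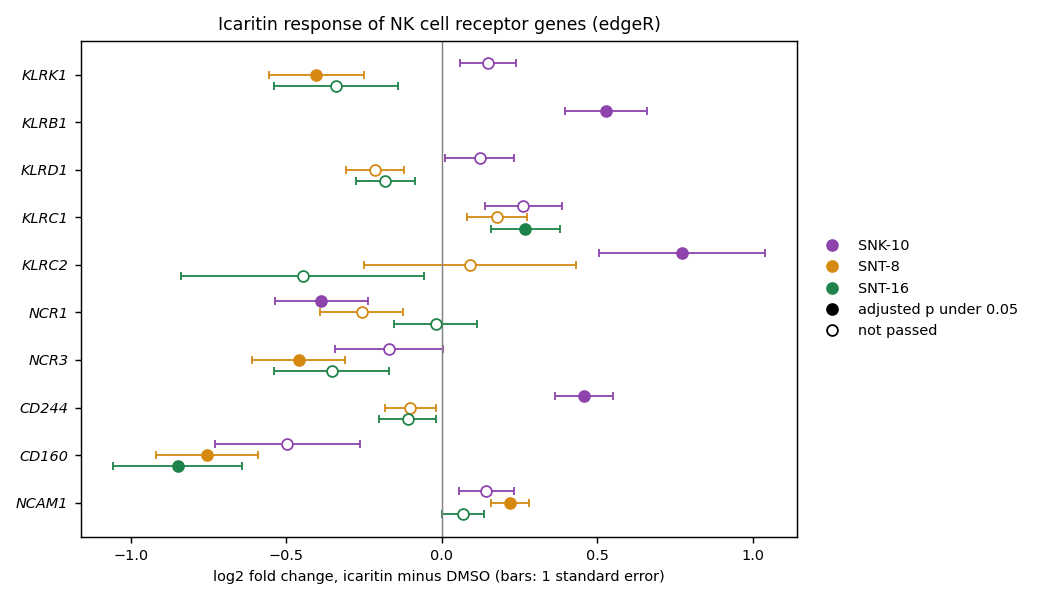
Log2 fold change of each receptor gene, icaritin minus DMSO (horizontal axis), in SNK-10, SNT-8 and SNT-16; bars are 1 standard error, filled points passed an adjusted p of 0.05 in edgeR and open points did not, and KLRB1 is left out in the SNT lines for want of counts. CD160 lies left of 0 in each line, at -0.50, -0.76 and -0.85, and CD244 lies at 0.46 in SNK-10 and at -0.10 and -0.11 in the SNT lines.

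Counted together, the receptors' share past the threshold lay near or below that of all genes. In SNK-10, 4 of the 10 passed, 3 higher and 1 lower, against 48.4% of the 14396 genes tested (24.4% higher and 24% lower). In SNT-8, 4 of the 9 members other than KLRB1 passed, 1 higher and 3 lower (5 of 10 with the 4 counts of KLRB1), against 49.1% of all genes (24% higher and 25% lower), and 3 passed without DMSO replicate 1 or without icaritin replicate 2, each time CD160, NCAM1 and NCR3. In SNT-16, CD160 and KLRC1 passed, 1 lower and 1 higher, against 42% of all genes (21.2% higher and 20.8% lower), and 1 passed in the fits that ended the KLRC1 call. On the mean of the lines 5 of 10 passed, 2 higher and 3 lower, against 61.7% of all genes (31.7% higher and 30% lower); leaving out 1 library gave 4 to 7. KLRK1 on the mean (-0.20, adjusted p = 0.0521, edgeR) passed without mitochondrially encoded genes, and without SNT-8 DMSO replicate 2, SNT-8 icaritin replicate 1, SNK-10 DMSO replicate 3 or SNT-16 DMSO replicate 2, in a range of 0.0146 to 0.221. In edgeR 0 of the 10 passed in the same direction in all 3 lines, where 14.3% of all genes were lower and 13% higher. The median log2 fold change of the 9 members other than KLRB1 was 0.14 in SNK-10, -0.22 in SNT-8 and -0.18 in SNT-16, against 0.01, 0.02 and 0.02 for all genes tested.

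Differences between lines in the response were found in edgeR for 2 of 10 genes by the test over all 3 lines, CD244 (adjusted p = 0.00170) and KLRK1 (adjusted p = 0.0389), against 14.3% of all genes. The KLRK1 test over all lines was lost in 17 alternatives, among them those without each of the 8 libraries named next or without SNT-16 DMSO replicate 1 or 3 or SNT-16 icaritin replicate 1 or 3, with adjusted p between 0.0132 and 0.216. For SNK-10 minus SNT-8 CD244 and KLRK1 passed, both higher, against 10.8% of all genes (6.69% higher and 4.08% lower). KLRK1 differed by 0.55 there (SE 0.178, adjusted p = 0.0380), a call lost in 13 alternatives, with adjusted p between 0.0121 and 0.159. Of these, 8 left out 1 library: SNT-8 DMSO replicate 1 or 3, SNT-8 icaritin replicate 2 or 3, SNK-10 DMSO replicate 1 or 3, or SNK-10 icaritin replicate 1 or 3. For SNK-10 minus SNT-16 CD244 alone passed, as higher, against 12.5% of all genes (6.74% higher and 5.77% lower); KLRC2 (1.22, adjusted p = 0.0887, edgeR) passed without SNT-16 DMSO replicate 1 (1.54, adjusted p = 0.0296, in a range of 0.0222 to 0.415). For SNT-8 minus SNT-16 the edgeR count was 0 of 10 at the adjusted threshold, where 0.438% of all genes passed (0.174% higher and 0.264% lower). It was 0 with DESeq2 and limma too, and KLRB1 alone had an unadjusted p under 0.05. These differences share their DMSO and icaritin libraries between pairs of lines.

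In the DMSO libraries 9 of 10 genes differed between SNK-10 and SNT-8, 3 higher and 6 lower in SNK-10, against 57.6% of all genes (29.9% higher and 27.8% lower). Between SNK-10 and SNT-16, 8 of 10 differed, 3 higher and 5 lower, against 57.8% (30.1% higher and 27.7% lower). In both comparisons KLRB1, which passed the filter only through its SNK-10 counts, is among the genes higher in SNK-10. Between SNT-8 and SNT-16, 6 of 10 differed, all higher in SNT-8, against 13.2% of all genes (7.34% higher and 5.89% lower). These were NCAM1, KLRC1, KLRK1, NCR3, CD160 and CD244. KLRB1 is among the 10 here with 0 counts in SNT-8 and 1 count in SNT-16. Per transcript length, KLRK1 (21.8 ± 1.71 FPKM, SD, n = 3) and KLRB1 (19.1 ± 0.601 FPKM) led in SNK-10 and KLRC2 came last (1.84 ± 0.0351 FPKM). CD244 led in SNT-8 (21.2 ± 0.949 FPKM), ahead of KLRC1 (14.7 ± 1.16 FPKM), while NCAM1, NCR1, NCR3 and KLRD1 lay at 9.69 to 11.04 FPKM with overlapping libraries. CD244 also led in SNT-16 (13.7 ± 0.327 FPKM), where NCR1, KLRC1 and KLRD1 overlapped at 9.24 to 9.66 FPKM.

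Several signalling chains that serve these receptors were abundant in SNK-10 and near 0 in the SNT lines. FCER1G, the chain used by NCR1 and NCR3, averaged 230.2 ± 5.22 FPKM in SNK-10, against 0.647 ± 0.202 FPKM in SNT-8 and 1.20 ± 0.117 FPKM in SNT-16, all in DMSO libraries (SD, n = 3). TYROBP, the partner of KLRC2, was counted 727 times in all over the SNK-10 DMSO libraries, against 7 in SNT-8 and 4 in SNT-16. SH2D1B, an adaptor of CD244, had 926 counts against 6 and 2, the kinase gene LCK had 2390 against 9 and 6, and the inhibitory phosphatase gene PTPN6 had 418 against 14 and 3. The kinase gene SYK averaged 12.3 FPKM in SNK-10, against 0.180 FPKM in SNT-8 and 0.260 FPKM in SNT-16. The chains that all lines shared were HCST, the partner of KLRK1 (47.0 ± 3.32 FPKM in SNK-10, 28.0 ± 3.11 in SNT-8 and 31.9 ± 2.05 in SNT-16), CD247 (65.5 ± 2.39, 68.1 ± 3.61 and 63.8 ± 1.93 FPKM) and SH2D1A (67.1 ± 0.657, 102 ± 2.67 and 115 ± 3.97 FPKM). Of the 22 adaptor and kinase genes 21 were tested. Of these, 9 were higher and 7 lower in SNK-10 than in SNT-8, against 57.6% of all genes. Against SNT-16, 9 were higher and 6 lower, where 57.8% of all genes differed. The higher ones include genes, such as TYROBP, SH2D1B and LCK, that passed the filter on low counts only through SNK-10. Such genes could only be called higher in SNK-10.

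**Figure D4:**
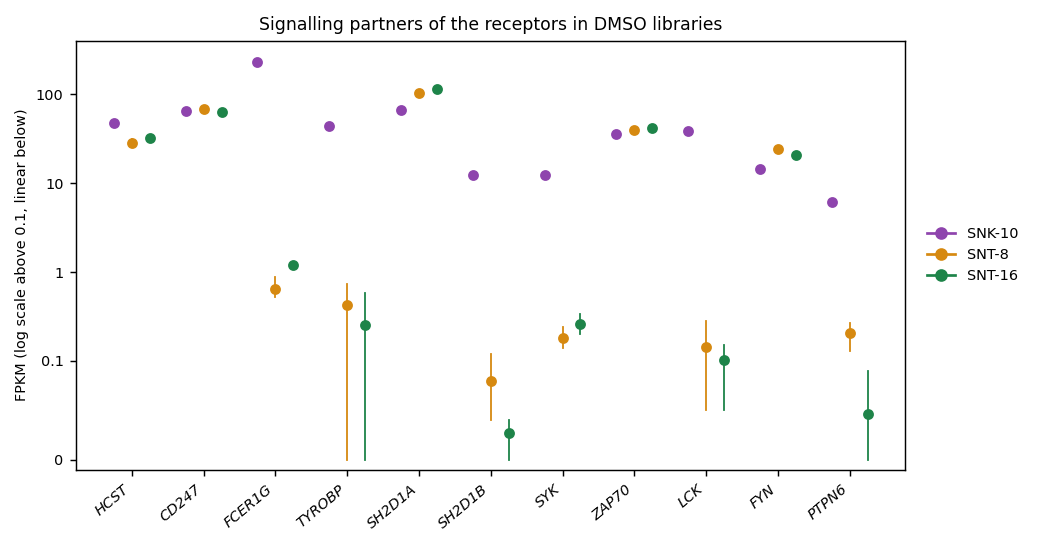
FPKM of 11 signalling partners of the receptors in DMSO libraries (vertical axis, log scale above 0.1 FPKM and linear below); points are means of 3 libraries and lines run from the lowest to the highest library. FCER1G is at 230.2 FPKM in SNK-10 and at 0.647 and 1.20 FPKM in SNT-8 and SNT-16, whereas CD247 lies at 65.5, 68.1 and 63.8 FPKM.

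After icaritin, the shared downstream adaptors moved in both directions. LCP2, the scaffold SLP-76, fell to 45.1 ± 0.756 FPKM in SNK-10 against 60.1 ± 1.19 FPKM after DMSO, to 59.2 ± 4.31 against 107 ± 3.82 FPKM in SNT-8, and to 51.2 ± 0.460 against 85.7 ± 1.43 FPKM in SNT-16 (SD, n = 3 each; adjusted p at most 9.42e-09, edgeR). VAV1, an exchange factor downstream of these receptors, fell by 0.50 on the log2 scale on the mean of the lines (SE 0.041, adjusted p = 1.40e-13). PLCG1, a phospholipase of the same chain, rose by 0.46 (SE 0.035, adjusted p = 1.15e-14) and CD247 by 0.24 (SE 0.032, adjusted p = 2.81e-08). Of the 21 tested genes of this list, 8 rose and 5 fell in SNK-10, 4 rose and 7 fell in SNT-8, and 4 rose and 5 fell in SNT-16, where 48.4%, 49.1% and 42% of all genes passed in the same order of lines. HCST did not pass in any line, with estimates of 0.12, 0.05 and -0.11 on the log2 scale. TYROBP did not pass in SNK-10, with 673 counts after icaritin against 727 after DMSO. In the SNT lines TYROBP had too few counts for a response to be read. These were 8 against 7 in SNT-8 and 2 against 4 in SNT-16.

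MICA, MICB and ULBP2, ligands of KLRK1, rose. MICA averaged 12.1 ± 0.987 FPKM after icaritin against 7.36 ± 0.808 FPKM after DMSO in SNK-10, 10.98 ± 2.02 against 4.73 ± 0.892 FPKM in SNT-8, and 8.34 ± 0.453 against 4.24 ± 1.20 FPKM in SNT-16 (SD, n = 3 each). Its mean log2 fold change was 0.85 (SE 0.083, adjusted p = 2.91e-11, edgeR), and those of MICB and ULBP2 were 0.40 (SE 0.042, adjusted p = 5.67e-11) and 0.49 (SE 0.059, adjusted p = 1.75e-09). ULBP1, ULBP3 and RAET1E, further ligands of KLRK1, did not pass on the mean of the lines (-0.31, -0.25 and -0.10). MICA and MICB are closely related and carry fractional counts, so their split is uncertain. CD48, the ligand of CD244, fell to 115 ± 1.55 FPKM against 147 ± 5.16 FPKM in SNK-10, to 109 ± 4.37 against 153 ± 4.99 FPKM in SNT-8 and to 109 ± 2.37 against 145 ± 6.46 FPKM in SNT-16, a mean of -0.43 (SE 0.028, adjusted p = 9.29e-17).

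TNFRSF14, a ligand of CD160, rose in each line by 0.38, 0.38 and 0.34 on the log2 scale (adjusted p at most 0.000450, edgeR), in SNK-10, SNT-8 and SNT-16. CLEC2D, the ligand of KLRB1, rose by 0.39 in SNK-10 (SE 0.049, adjusted p = 2.03e-08), the line that carries KLRB1, and did not pass in SNT-8 (-0.10, adjusted p = 0.114) or SNT-16 (0.03, adjusted p = 0.708). HLA-E, read by the CD94 receptors, fell by 0.15 in both SNT lines (adjusted p = 0.00427 in SNT-8 and 0.00453 in SNT-16) and had an estimate of 0.01 in SNK-10 (adjusted p = 0.822). BAG6, a ligand of NCR3, fell by 0.17 in SNT-8 (adjusted p = 0.00318) and by 0.20 in SNT-16 (adjusted p = 0.000458), with -0.10 in SNK-10 (adjusted p = 0.0713). Of 14 tested ligand genes, 5 rose and 1 fell in SNK-10, and 4 rose and 4 fell in each SNT line, where 48.4% (SNK-10), 49.1% (SNT-8) and 42% (SNT-16) of all genes passed.

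Of 14 tested transcription factors of the NK lineage, 7 rose and 3 fell in SNK-10, and 7 rose and 5 fell in each SNT line; the shares of all genes past the threshold were 48.4% in SNK-10, 49.1% in SNT-8 and 42% in SNT-16. TBX21 (T-bet), which drives NK cell maturation, fell to 9.47 ± 0.623 FPKM against 17.7 ± 0.758 FPKM in SNK-10, to 12.7 ± 1.57 against 33.4 ± 1.35 FPKM in SNT-8 and to 16.0 ± 0.864 against 37.0 ± 0.462 FPKM in SNT-16 (SD, n = 3 each), a mean of -1.18 on the log2 scale (SE 0.040, adjusted p = 1.40e-25, edgeR). Its relative EOMES fell by 0.27, 0.64 and 0.55 in SNK-10, SNT-8 and SNT-16 (adjusted p at most 0.00147). NFIL3, needed for NK cell development in mice, rose by 1.03 on the mean of the lines (SE 0.043, adjusted p = 8.96e-23), TOX2 by 0.80 (SE 0.032, adjusted p = 2.56e-23) and PRDM1 by 0.57 (SE 0.025, adjusted p = 8.64e-22).

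**Figure D5:**
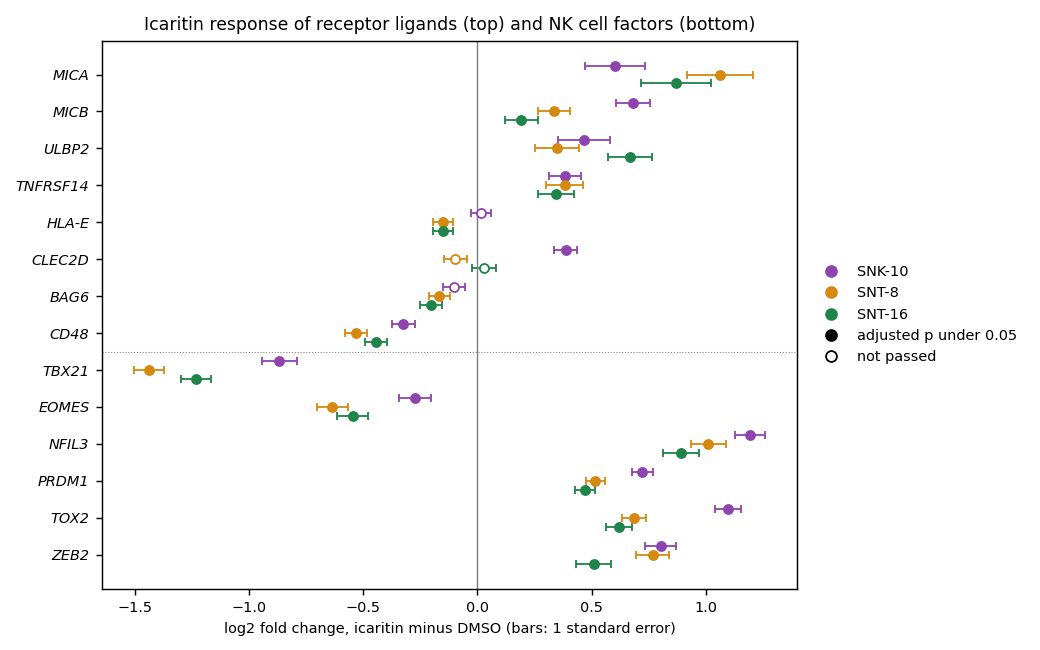
Log2 fold change, icaritin minus DMSO (horizontal axis), of 8 receptor ligands (above the dotted line) and 6 NK cell transcription factors (below it) in the 3 lines; bars are 1 standard error, and open points did not pass an adjusted p of 0.05 in edgeR. CD48, TBX21 and EOMES lie left of 0 in each line, and MICA, MICB, ULBP2, TNFRSF14, NFIL3, PRDM1, TOX2 and ZEB2 right of it.

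Among 31 tested genes for other surface receptors of NK cells, 9 rose and 5 fell in SNK-10, 6 rose and 10 fell in SNT-8, and 6 rose and 8 fell in SNT-16. These counts lie near the shares of all genes, which were 48.4%, 49.1% and 42% in that order. LAIR1, an inhibitory collagen receptor, rose by 0.62 in SNK-10, 1.14 in SNT-8 and 1.21 in SNT-16 on the log2 scale (adjusted p at most 9.93e-06, edgeR). The adhesion receptor gene CD2 fell by 0.52, 0.60 and 0.43 in the same order (adjusted p at most 2.96e-09), and IL2RB, a chain of the interleukin 2 and 15 receptors, fell by 0.28, 0.71 and 0.53 (adjusted p at most 1.49e-05). TIGIT was counted 3075 times over the SNK-10 DMSO libraries, against 25 in SNT-8 and 20 in SNT-16, and FCGR3A (CD16) 520 times against 5 and 4, so both were low in the SNT lines, as KLRB1 was. Between DMSO libraries, 16 of the 31 were higher and 6 lower in SNK-10 than in SNT-8, against 57.6% of all genes. Against SNT-16, 17 were higher and 7 lower, where 57.8% of all genes differed. The higher ones include genes, such as FCGR3A, SLAMF1 and CD300A, that passed the filter on low counts only through SNK-10. Such genes could only be called higher in SNK-10. CD226 was among the lower, by 1.72 against SNT-8 (SE 0.082, adjusted p = 5.43e-21, edgeR).

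Likeness of pattern was measured as the root mean square difference between log2 CPM profiles over the 6 group means, each centred on its own mean, against 9332 genes with at least 10 CPM. The nearest gene to CD160 was IL16, at 0.13, ahead of TRIM16 at 0.27. The nearest to KLRK1 was PIK3CG (0.23), to KLRB1 NRP2 (0.22), to NCAM1 SERPINB9 (0.19), to CD244 TMEM200B (0.18), to KLRC1 MYO1D (0.16), to KLRC2 STK33 (0.18) and to NCR3 UBALD2 (0.21). KLRD1 (CLIP1, 0.05) and NCR1 (LUZP1, 0.02) had the closest matches. The 6 points are 3 lines in 2 treatments, and no test is attached to them.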

How the data were processed

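Per the labels' protocols, total RNA was extracted with Trizol and 1 ug went into an MGIEasy library kit. Bowtie2 and HISAT are named in the submitters' processing notes, without versions. Not given in the sources used here are the counting tool, its use of strand and the genome build. The deposited tables hold, per NCBI Gene ID, the authors' expected count (an estimate that need not be whole; 60.3% to 61.6% of a library's listed genes were whole within 0.005) and the authors' FPKM. A gene not listed in a library was taken as 0. Symbols came from the RefSeq table of GRCh38.p14, which named 21559 of 21662 IDs.

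Levels are the deposited FPKM. Expected counts were rounded and tested with edgeR 4.0.16 in R 4.3.3: filterByExpr (minimum count 10, minimum total 15; 14396 genes kept), TMM scaling, and 1 robust quasi-likelihood fit over 6 group means of 18 libraries with 12 residual degrees of freedom. Tests were two-sided, with Benjamini-Hochberg adjustment over all genes tested and a threshold of 0.05. Standard errors were taken as the size of the log2 fold change over the root of its F statistic. The members, lists and named genes were chosen with earlier results of these data known. All 10 members are named; from each further list, up to 4 genes a contrast with the smallest p past the threshold, and the direct partners of members; as likest patterns, up to 2 genes a member. The procedure was tested on simulated data. Replicates of a group differed by more than sampling noise in each pair, with a chi-square per gene of 1.37 to 8.18. Alternatives used DESeq2 1.42.0, limma 3.58.1 on log2(FPKM + 0.1) and log2(FPKM + 1), RLE scaling, libraries without mitochondrially encoded genes, no filter, a mean count of at least 50, only the 6 libraries compared, a replicate block, KLRC genes summed, and each library left out. Counting intervals, and floors of 3 counts, cover counting error only.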

Additional observations from a re-analysis of the deposited data

Results flagged for a closer look

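These genes are listed because the test of the icaritin response over the 3 lines passed the threshold, which 14.3% of all genes tested did. Adjusted p-values are from edgeR's quasi-likelihood test with 2 degrees of freedom, and log2 fold changes are icaritin minus DMSO.

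Of the receptors, CD244 (adjusted p = 0.00170) had 0.46 in SNK-10, -0.10 in SNT-8 and -0.11 in SNT-16. KLRK1 (0.0389) had 0.15, -0.40 and -0.34 in the same order.

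Of the signalling partners, LCP2 (5.73e-07) fell by 0.38, 0.90 and 0.77 in SNK-10, SNT-8 and SNT-16. ZAP70 (0.000287) fell by 0.20 in SNT-8 and 0.51 in SNT-16, with an estimate of -0.02 in SNK-10. FYN (0.00182) rose by 0.49 in SNK-10 and 0.14 in SNT-16, with an estimate of 0.09 in SNT-8. VAV1 (0.00307) fell by 0.25, 0.73 and 0.51 in the order SNK-10, SNT-8, SNT-16.

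Among ligands, CLEC2D (9.82e-06) rose by 0.39 in SNK-10, with estimates of -0.10 in SNT-8 and 0.03 in SNT-16. MICB (0.00199) rose by 0.68, 0.33 and 0.19 in the same order of lines.

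Of the other receptors, SLAMF7 (3.15e-07) fell by 0.54 in SNT-8 and 0.35 in SNT-16, with an estimate of 0.08 in SNK-10. IL2RB (0.000157) fell by 0.28, 0.71 and 0.53 in SNK-10, SNT-8 and SNT-16. ITGAL (4.62e-05) fell by 0.64 in SNT-8 and 0.54 in SNT-16, with an estimate of 0.04 in SNK-10. CD96 (0.00356) rose by 0.53, 0.22 and 0.28 in the order SNK-10, SNT-8, SNT-16. LAIR1 (0.00526) rose by 0.62, 1.14 and 1.21 in SNK-10, SNT-8 and SNT-16.

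Of the transcription factors, TOX2 (4.14e-05) rose by 1.10, 0.69 and 0.62 in the same order. TBX21 (0.000413) fell by 0.87, 1.44 and 1.23, and PRDM1 (0.00890) rose by 0.72, 0.52 and 0.47 in that order. GATA3 (0.000350) rose by 0.19 in SNK-10 and fell by 0.25 in SNT-8 and 0.41 in SNT-16.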

How the results depend on the processing

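The number of receptor genes past the threshold was 5 in SNT-8, and 3 with only the 6 libraries compared (3 to 6 leaving out a library). It was 4 in SNK-10, and 2 with DESeq2 (3 to 5). It was 2 in SNT-16, and 1 without mitochondrially encoded genes, with DESeq2, with no filter, under the replicate block and with KLRC genes summed (1 to 2); it was also 1 at a mean count of at least 50, where KLRC1 passed and CD160 was not tested. For the response of SNK-10 minus SNT-8 it was 2, and 1 with DESeq2, the replicate block, limma at either pseudocount and KLRC genes summed (1 to 3). For SNK-10 minus SNT-16 it was 1, and 3 with limma on log2(FPKM + 1) (1 to 2). For the test over all lines it was 2, and 1 with DESeq2, the replicate block and KLRC genes summed (1 to 2). With limma, KLRK1 was lost there and KLRB1 passed on log2(FPKM + 0.1) (adjusted p = 0.00827), and KLRB1 (0.00849) and KLRC2 (0.0481) passed on log2(FPKM + 1). Over all genes, 63 responses differed between SNT-8 and SNT-16, 110 with DESeq2, 279 with no filter, 9 and 8 with limma (17 to 178). With KLRC genes summed, the family sum stood in for each KLRC gene, and the adjusted p ranges of KLRC1 and KLRC2 include it. For SNK-10 minus SNT-8 in DMSO libraries the sum was -0.31, where KLRC2 alone was higher in SNK-10. For SNK-10 minus SNT-16 it was 0.34, where KLRC1 alone was lower. KLRC3 had 113 counts over the SNK-10 DMSO libraries, against 16 in SNT-8 and 13 in SNT-16, and KLRC4 had 62 against 12 and 5. The part of the division of reads was not tested. The replicate block ended no other call of a receptor gene and brought KLRD1 past the threshold in SNT-8 (adjusted p = 0.0353, edgeR). Same-numbered libraries of a line did not deviate together (correlations of -0.129 to 0.042 across genes), so no pairing by number was seen. With 3 libraries a group, this check cannot show that the numbers mark no shared culture or day. RLE scaling moved the median of all genes by -0.005 to 0.009. Only the 6 libraries compared was not run for the mean, the test over lines and the differences of responses. CPM levels stand beside FPKM for the order of lines, not of genes. At these depths, KLRB1 in the SNT lines lies under the floor of 3 counts or near it, and CD160 and KLRC2 rest on few counts.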
